A study of Homo sapiens with 15 samples.

Results

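The 10 human genes SQSTM1, NBR1, CALCOCO2, MAP1LC3B, GABARAP, GABARAPL1, GABARAPL2, ULK1, WIPI1 and TFEB were examined in the cell line UKE-1. They were chosen by symbol, as the autophagy receptors, ATG8 proteins and autophagy regulators, and 10 of the 58735 genes of the count table carry these symbols. Earlier results of these data were known when they were chosen. Their counts beside those of all tested genes are therefore a description. All 10 passed the filter on low counts, which kept 16146 genes for testing.

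Autophagy is the process by which a double membrane closes around cytoplasmic cargo and delivers it to the lysosome. ULK1 is the kinase that starts it, WIPI1 binds the phosphatidylinositol 3-phosphate of the growing membrane, and the ubiquitin-like ATG8 proteins (MAP1LC3B, GABARAP, GABARAPL1 and GABARAPL2) are conjugated to lipid in that membrane. Receptors such as SQSTM1 (p62), NBR1 and CALCOCO2 (NDP52) bind ATG8 proteins on one side and ubiquitin-tagged cargo on the other, and TFEB is a transcription factor of lysosome and autophagy genes. SQSTM1 is also known as a target of the oxidative stress factor NRF2 and as a binder of its inhibitor KEAP1.

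UKE-1 is an established line of blood cells from a patient whose myeloproliferative neoplasm had become leukaemia, and it carries an activating JAK2 mutation. All cells were labelled as wild type, and all libraries as taken 3 h after treatment. The groups, of 3 libraries each, were untreated cells, cells stimulated with the inflammatory cytokine TNF-α alone, and TNF-α stimulated cells that then received MCL, ruxolitinib, or MCL together with ruxolitinib. The series title names micheliolide, a sesquiterpene lactone, and MCL is read as its abbreviation. Ruxolitinib inhibits JAK1 and JAK2. Every drug-treated group thus also carried TNF-α, and no group received a drug without it. The sources used here do not state the doses, how long TNF-α acted before the drugs, or whether a group's 3 libraries were grown as separate cultures. The p-values then cover only the variation among these libraries, and that may be technical.

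Library totals ranged from 15476399 to 18035604 counts. Of the 8 blood, myeloid and progenitor markers examined, 7 were above 1 CPM (the usual count unit relative to library size) in every group, and MPO was below it. The T cell genes CD3D, CD3E and CD4, the B cell gene CD79A, the keratin gene KRT8 and the endothelial genes PECAM1 and CDH5 were also above 1 CPM in every group, while EPCAM, CDH1 and MS4A1 were at 0. Mitochondrial transcripts took 4.30% of counts with both drugs and 4.55% with MCL, beside 5.49% with ruxolitinib, 5.12% with TNF-α alone and 5.23% without stimulation. They were thus lowest in the groups where most of the 10 genes were highest, and their part in the results was not tested.

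The promoter windows of 4 of the genes are given because these genes showed the largest changes (SQSTM1 and GABARAPL1) or carried a searched motif (GABARAPL1, MAP1LC3B and CALCOCO2). Each runs from 250 bases before to 50 bases after an annotated start, on the plus strand of GRCh38.p14, as taken from RefSeq, and capitals mark the motif. The SQSTM1 window is chr5:179820655-179820954, that of GABARAPL1 is chr12:10212627-10212926, that of MAP1LC3B is chr16:87392086-87392385, and that of CALCOCO2 is chr17:48830785-48831084.
SQSTM1: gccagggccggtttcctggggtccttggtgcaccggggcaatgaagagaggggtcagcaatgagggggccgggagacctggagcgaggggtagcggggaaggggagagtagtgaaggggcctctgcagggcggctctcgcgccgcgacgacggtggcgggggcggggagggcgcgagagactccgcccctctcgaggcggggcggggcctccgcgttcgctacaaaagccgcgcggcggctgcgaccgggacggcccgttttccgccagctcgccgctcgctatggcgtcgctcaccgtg
GABARAPL1: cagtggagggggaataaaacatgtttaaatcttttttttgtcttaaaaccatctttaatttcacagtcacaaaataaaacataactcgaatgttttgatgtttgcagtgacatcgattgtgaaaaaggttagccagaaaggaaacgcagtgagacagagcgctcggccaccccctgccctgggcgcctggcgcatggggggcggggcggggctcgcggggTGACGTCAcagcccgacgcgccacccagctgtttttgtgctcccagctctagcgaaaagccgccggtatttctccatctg
MAP1LC3B: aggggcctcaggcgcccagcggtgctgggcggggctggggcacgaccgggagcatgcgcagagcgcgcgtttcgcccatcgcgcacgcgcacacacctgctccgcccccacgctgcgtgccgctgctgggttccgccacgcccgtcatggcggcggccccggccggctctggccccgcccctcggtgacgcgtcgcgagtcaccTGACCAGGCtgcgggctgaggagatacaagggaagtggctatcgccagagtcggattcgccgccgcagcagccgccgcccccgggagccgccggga
CALCOCO2: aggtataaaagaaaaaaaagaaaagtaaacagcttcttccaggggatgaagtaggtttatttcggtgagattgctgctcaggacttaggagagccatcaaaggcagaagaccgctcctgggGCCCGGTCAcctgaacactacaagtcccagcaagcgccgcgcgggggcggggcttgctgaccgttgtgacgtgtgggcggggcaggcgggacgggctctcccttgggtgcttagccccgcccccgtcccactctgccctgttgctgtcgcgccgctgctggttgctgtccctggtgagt

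All 10 genes matched RefSeq promoter entries, 15 windows in all because some genes have several starts. Motifs were searched on both strands. The cAMP response element TGACGTCA, the site of CREB and ATF factors, lay 30 bases before the start of GABARAPL1 and occurred in 1.85% of all 35116 promoter windows. The core of the antioxidant response element, TGACNNNGC, lay 46 bases before the start of MAP1LC3B and, on the minus strand, 129 bases before that of CALCOCO2. It occurred in 13.3% of all windows. The letters CACGTG, the palindromic E-box (7.26% of all windows), TCACGTGA, the core of the CLEAR element bound by TFEB (0.98%, each such match also holding the E-box), and TGATGNAA, the core of the composite site of CEBP and ATF factors (3.62%), were in none of the 15 windows. The 3 SQSTM1 windows held no match to any of the 5 motifs.

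The 10 genes differed widely in level. On the scale of counts per gene length and library size (RPKM), which allows genes to be compared, SQSTM1 stood at 23.5 ± 0.838 (SD, n = 3) in untreated cells and at 173 ± 5.98 with both drugs, which moved it from rank 2090 to rank 166 of all tested genes. With both drugs, MAP1LC3B at 22.8 RPKM and GABARAPL2 at 20.5 RPKM followed, then ULK1 at 11.4, NBR1 at 10.3 and CALCOCO2 at 5.28 RPKM. GABARAPL1, TFEB, WIPI1 and GABARAP had the lowest levels, between 0.976 and 2.44 RPKM. The highest group mean was that of both drugs for 8 genes and that of TNF-α alone for GABARAP and TFEB. A library holds RNA of many cells, so more transcript in every cell and more transcript in a subset of the cells cannot be told apart.

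**Figure D1:**
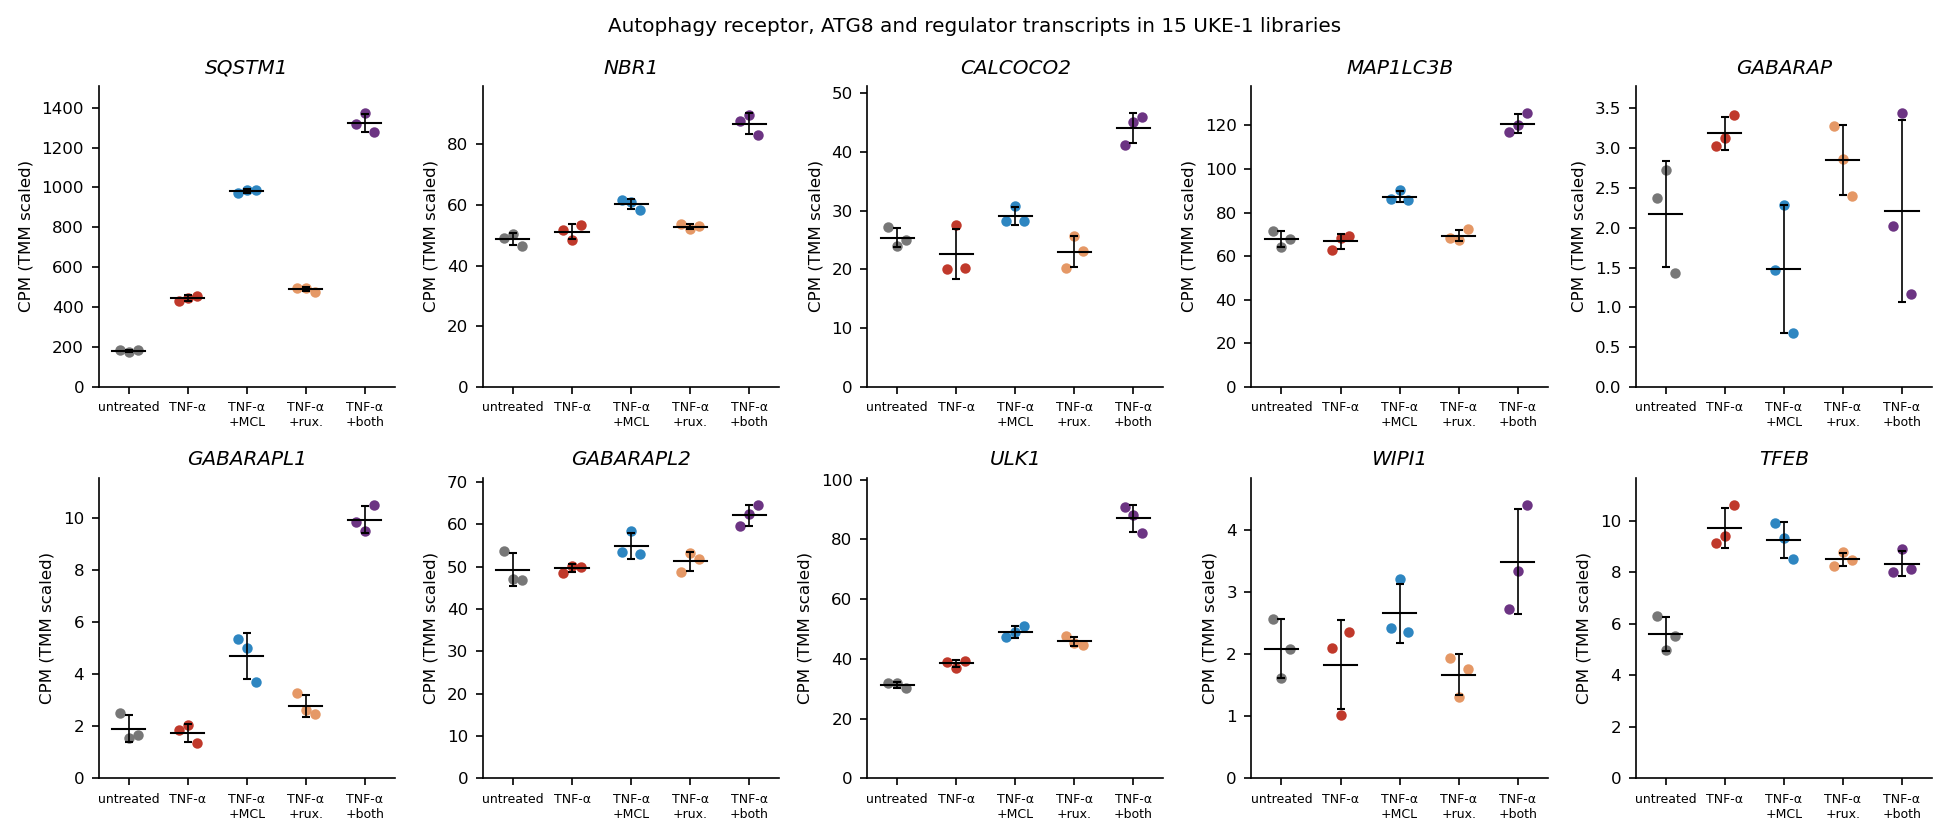
Levels of the 10 genes in CPM scaled with TMM factors (vertical axes from 0), with 1 panel per gene and the 5 groups side by side. Points are libraries, and bars give the mean and SD of 3. SQSTM1 climbs from between 173 and 185 CPM in untreated cells to between 1281 and 1372 CPM with both drugs, and GABARAP and WIPI1 lie below 5 CPM with wide spread.

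TNF-α alone raised SQSTM1, ULK1 and TFEB against untreated cells, and none of the 10 genes fell. Of all tested genes 14.1% rose and 12.5% fell in this comparison, so the 3 of 10 called are near the background share. The median log2 change of the 10 genes was 0.04, against 0.00 for all tested genes. The 7 other genes, among them all 4 ATG8 genes and the receptors NBR1 and CALCOCO2, did not pass the test (adjusted p under 0.05, edgeR quasi-likelihood F-test with Benjamini-Hochberg adjustment over all tested genes, used throughout). The libraries of the groups did not overlap for 4 of the 10 genes and for 38.8% of all tested genes. Among all calls of this comparison 53% were higher, and 42.4% when scaled to library totals.

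MCL, compared with TNF-α alone, raised 6 of the 10 genes, namely SQSTM1, NBR1, CALCOCO2, MAP1LC3B, GABARAPL1 and ULK1, where 10.9% of all tested genes rose. GABARAP fell, as did 15.1% of all tested genes. The median log2 change was 0.36 over the 10 genes and -0.02 over all tested genes, and groups did not overlap for 8 of the 10 genes and for 39% of all tested genes. Higher calls were 41.8% of all calls, and 53.7% when scaled to library totals. The call of GABARAP rests on few counts and was lost when single libraries were left out, as given with its values. The GABARAPL2 difference of 0.15 ± 0.06 (adjusted p = 0.0546) missed the threshold and passed under 4 other settings, with values from 0.16 to 0.18.

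Ruxolitinib raised SQSTM1, ULK1 and GABARAPL1 against TNF-α alone, against a background of 5.15% of tested genes higher, and lowered none of the 10, against a background of 10.6% lower. The median log2 change was 0.05 for the 10 genes and -0.01 for all tested genes. The groups did not overlap for 4 of the 10 genes and for 29.7% of all tested genes. Higher calls were 32.8% of all calls, and 45.4% when scaled to library totals. The call of GABARAPL1 was lost under 2 other settings and without any of 3 single libraries, as given with its values.

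With both drugs, 8 of the 10 genes rose against TNF-α alone, where 25.5% of all tested genes rose and 29.3% fell. TFEB and GABARAP did not pass. The median log2 change was 0.90 for the 10 genes and -0.03 for all tested genes, and 9 of the 10 genes had groups that did not overlap, as had 60.6% of all tested genes. Of all calls 46.5% were higher, and 56.6% when scaled to library totals. Against ruxolitinib alone 8 rose and none fell (background 24.8% higher and 26.8% lower), with a median of 0.86. Against MCL alone, 7 rose and none fell (background 19.6% higher and 22% lower), with a median of 0.50 and with WIPI1 as the gene that did not pass in addition to TFEB and GABARAP. Groups did not overlap for 8 of the 10 genes against ruxolitinib (56.3% of all tested genes) and for 7 against MCL (48.9% of all tested genes).

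The drugs were also set against each other. With MCL, 5 genes (SQSTM1, NBR1, CALCOCO2, MAP1LC3B and GABARAPL1) were higher than with ruxolitinib and GABARAP was lower, where 14.3% of all tested genes were higher and 13.1% lower. The groups did not overlap for 7 of the 10 genes and for 37.5% of all tested genes. ULK1 did not pass, at 0.10 ± 0.06 on the log2 scale with a 95% interval from -0.02 to 0.21 (adjusted p = 0.232). The comparisons with TNF-α alone share its libraries, and those with both drugs share the combination libraries, so their values are given side by side.

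**Figure D2:**
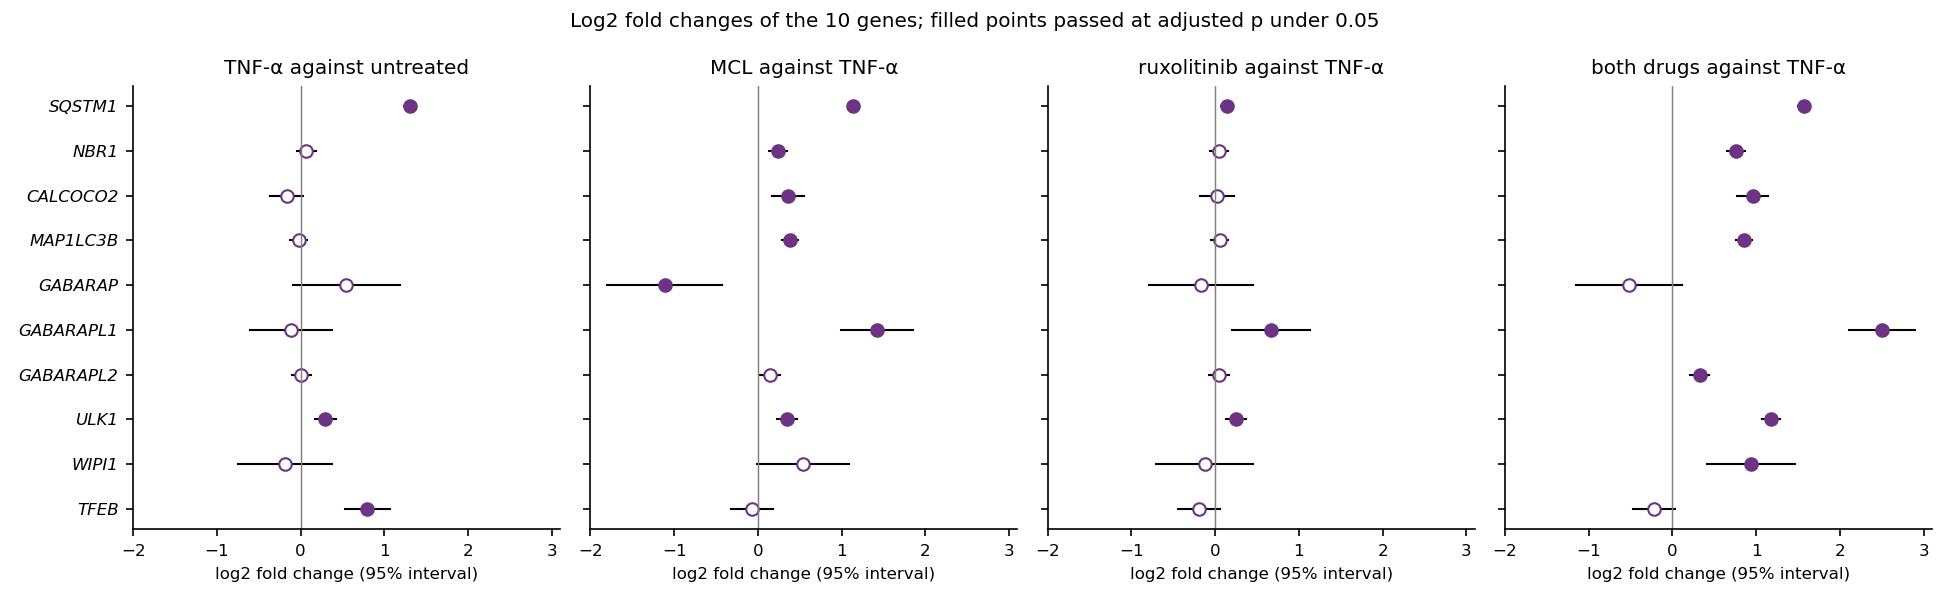
Log2 fold changes of the 10 genes in 4 comparisons, with 95% intervals as lines and filled points for an adjusted p under 0.05. SQSTM1 is filled in all 4 panels, and with both drugs 8 of the 10 genes are filled on the right of 0, from 0.33 for GABARAPL2 to 2.50 for GABARAPL1.

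SQSTM1, the receptor that gathers ubiquitinated proteins, lies at chr5:179806398-179838078 on the plus strand of hg38 (ENSG00000161011). Its levels were 185, 173 and 183 CPM in the untreated libraries, 432, 447 and 458 CPM with TNF-α, 497, 496 and 478 CPM with ruxolitinib, 973, 985 and 988 CPM with MCL, and 1319, 1372 and 1281 CPM with both drugs. No 2 groups overlapped, and each step of this order from untreated to both drugs passed the test. The mean with both drugs was 7.35 times that of untreated cells.

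Against untreated cells TNF-α raised SQSTM1 by 1.31 ± 0.03 on the log2 scale (SE, adjusted p = 1.47e-40). On top of TNF-α, MCL added 1.14 ± 0.03 (adjusted p = 7.43e-38), ruxolitinib 0.14 ± 0.03 (adjusted p = 0.00138) and both drugs 1.57 ± 0.03 (adjusted p = 2.93e-46). SQSTM1 was the one gene of the 10 with a log2 change above 1 both for the cytokine and for MCL. When ruxolitinib was added to MCL it rose by 0.43 ± 0.03 (adjusted p = 3.53e-18), beside the 0.14 of ruxolitinib given without MCL.

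The opposite-strand gene MRNIP, which encodes a nuclear protein of DNA repair, overlaps 20.7% of the exonic bases of SQSTM1 and 14.9% of its coding bases. MRNIP rose too, by 0.76 ± 0.08 with TNF-α (adjusted p = 4.94e-12), by 1.20 ± 0.07 with MCL (adjusted p = 3.77e-23) and by 2.09 ± 0.06 with both drugs (adjusted p = 1.88e-37) on the log2 scale. Over the 15 libraries it held 11474 counts against 173321 for SQSTM1. Whether the counting used strand is not given in the sources used here, so reads of the shared bases cannot be told apart.

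NBR1, a receptor that acts with SQSTM1 in clearing protein aggregates and peroxisomes, lies at chr17:43170481-43211689 on the plus strand (ENSG00000188554). It stood at 49.3, 50.4 and 46.6 CPM in untreated cells and at 51.7, 48.5 and 53.5 CPM with TNF-α, which overlap, and at 53.6, 52.2 and 53.0 CPM with ruxolitinib. MCL gave 61.7, 61.1 and 58.5 CPM, and both drugs 87.7, 89.8 and 83.1 CPM. The order is therefore both drugs, then MCL, then the 3 other groups, whose neighbours in this order did not pass the test.

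Against TNF-α alone NBR1 rose by 0.24 ± 0.05 with MCL (adjusted p = 0.000426) and by 0.76 ± 0.05 with both drugs (adjusted p = 5.23e-20) on the log2 scale. The difference with ruxolitinib was 0.05 ± 0.05 (adjusted p = 0.659). The opposite-strand RNA AC060780.1 overlaps 5.51% of the exonic bases of NBR1, none of them coding, and was itself higher with both drugs, by 0.83 ± 0.10 (adjusted p = 4.8e-11).

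CALCOCO2 encodes NDP52, a receptor for invading bacteria and damaged mitochondria, at chr17:48830988-48866522 on the plus strand (ENSG00000136436). Its levels were 27.2, 23.9 and 25.1 CPM in untreated cells, 19.99, 27.5 and 20.2 CPM with TNF-α, and 20.3, 25.7 and 23.2 CPM with ruxolitinib. With MCL they were 28.2, 30.8 and 28.3 CPM, and with both drugs 41.1, 45.0 and 45.9 CPM. The TNF-α replicate 2 stood apart from the other 2 libraries of its group and lay above every untreated library. MCL and untreated libraries, neighbours in the order of means, did not overlap, and that pair was not tested.

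CALCOCO2 rose with MCL by 0.36 ± 0.10 on the log2 scale (adjusted p = 0.00415) and with both drugs by 0.96 ± 0.09 (adjusted p = 4.19e-11) against TNF-α alone. Without TNF-α replicate 2 these values became 0.54 (adjusted p = 4.17e-06) and 1.13 (adjusted p = 2.5e-17). The difference between TNF-α and untreated cells of -0.16 ± 0.10 (adjusted p = 0.232) became -0.34 (adjusted p = 0.0035) without that library. MCL against ruxolitinib gave 0.34 ± 0.09 (adjusted p = 0.00631), which did not pass without ruxolitinib replicate 1 (0.25, adjusted p = 0.0553).

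Among the ATG8 genes, MAP1LC3B encodes LC3B, the protein most used as a marker of autophagosomes, and lies at chr16:87383995-87404779 on the plus strand (ENSG00000140941). It stood at 71.7, 64.1 and 67.7 CPM in untreated cells, 62.7, 68.3 and 69.3 CPM with TNF-α and 68.4, 67.4 and 72.3 CPM with ruxolitinib. MCL gave 86.0, 90.2 and 85.6 CPM, and both drugs 117, 120 and 126 CPM. The first 3 groups overlap one another, and MCL and both drugs lie above them without overlap.

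MAP1LC3B rose with MCL by 0.39 ± 0.05 (adjusted p = 3.49e-09) and with both drugs by 0.86 ± 0.05 (adjusted p = 5.81e-24) on the log2 scale against TNF-α alone. TNF-α itself gave -0.02 ± 0.05 (adjusted p = 0.822), with a 95% interval from -0.12 to 0.08. The near-copy MAP1LC3B2 shares 4.82% of the 50-base stretches of the MAP1LC3B exons, so few reads could be placed on either gene. FBXO31, on the opposite strand, overlaps 2.82% of its exonic bases.

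GABARAPL1, an ATG8 protein of the GABARAP subfamily that acts late in autophagosome formation, lies at chr12:10212458-10223130 on the plus strand (ENSG00000139112). Its levels were low, at 2.49, 1.56 and 1.67 CPM in untreated cells, 1.84, 2.04 and 1.37 CPM with TNF-α, and 3.28, 2.62 and 2.46 CPM with ruxolitinib. MCL brought it to 5.37, 5.03 and 3.71 CPM, and both drugs to 9.85, 9.50 and 10.5 CPM. In reads this was 22 to 34 counts per library with TNF-α alone and 170 to 189 with both drugs. No library with both drugs overlapped any other group, and the ruxolitinib libraries overlapped the untreated ones.

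The rise of GABARAPL1 with both drugs, 2.50 ± 0.20 on the log2 scale (adjusted p = 2.14e-17) or 5.67-fold, was the largest of the 10 genes. MCL alone gave 1.42 ± 0.21 (adjusted p = 2.33e-07), ruxolitinib alone 0.67 ± 0.23 (adjusted p = 0.0383), and both drugs against MCL 1.08 ± 0.17 (adjusted p = 2.34e-07). The ruxolitinib call was lost with no filter (0.68, adjusted p = 0.0565), in a fit of those groups only (0.68, adjusted p = 0.062), and on leaving out TNF-α replicate 1 (0.70, adjusted p = 0.0687), ruxolitinib replicate 1 (0.54, adjusted p = 0.192) or the third library with TNF-α alone (0.52, adjusted p = 0.2). In the promoter window printed above, GABARAPL1 carries the cAMP response element, which is a description of the letters and not of a bound factor.

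GABARAPL2, also known as GATE-16, lies at chr16:75566351-75577881 on the plus strand (ENSG00000034713) and moved least among the genes that rose with both drugs. It stood at 53.8, 47.2 and 47.0 CPM in untreated cells, 48.5, 50.3 and 50.1 CPM with TNF-α, 48.9, 53.2 and 51.9 CPM with ruxolitinib, 53.4, 58.5 and 53.0 CPM with MCL, and 59.6, 62.4 and 64.5 CPM with both drugs. The combination libraries lie above all others, and the 4 other groups form a chain in which neighbours overlap. Its change with both drugs was 0.33 ± 0.06 (adjusted p = 1.67e-06) against TNF-α alone and 0.18 ± 0.06 (adjusted p = 0.00775) against MCL. The latter missed the threshold without MCL replicate 3 (0.15, adjusted p = 0.0516) or combination replicate 3 (0.15, adjusted p = 0.0505).

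GABARAP, the founding member of its subfamily, lies at chr17:7240014-7242770 on the minus strand (ENSG00000170296) and was listed at only 11 to 63 counts per library. Its levels were 2.37, 2.72 and 1.43 CPM in untreated cells, 3.02, 3.12 and 3.42 CPM with TNF-α, 3.28, 2.86 and 2.40 CPM with ruxolitinib, 1.47, 2.29 and 0.680 CPM with MCL, and 2.03, 3.44 and 1.17 CPM with both drugs. The MCL libraries lay below those with TNF-α alone, and the combination libraries spanned nearly the whole range of all groups.

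MCL against TNF-α alone gave -1.11 ± 0.33 on the log2 scale for GABARAP (adjusted p = 0.0127). Leaving out TNF-α replicate 3 took it over the threshold (-1.06, adjusted p = 0.0544), as did leaving out MCL replicate 1 (-1.11, adjusted p = 0.0604) and leaving out MCL replicate 3 (-0.76, adjusted p = 0.072). The call against ruxolitinib, -0.95 ± 0.34 (adjusted p = 0.0345), was lost without MCL replicate 1 or 3 or ruxolitinib replicate 1 or 2. With both drugs the difference from TNF-α alone was -0.52 ± 0.31 (adjusted p = 0.158), and without combination replicate 2 it was -0.99 (adjusted p = 0.00744).

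The annotation bears on these GABARAP counts. The same-strand read-through gene AC120057.2 shares 30.5% of the exonic bases of GABARAP and 73.1% of its 357 coding bases, and was listed at 0 counts in all 15 libraries together, while the opposite-strand transcript AC120057.3 shares 25.2% of the exonic bases. How the counting treated reads that fall on more than 1 gene is not given in the sources used here, and the part of these overlaps in the low count of GABARAP was not tested.

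Summed over MAP1LC3B, GABARAP, GABARAPL1 and GABARAPL2, the ATG8 level was 30.4 ± 2.10 RPKM in untreated cells, 30.8 ± 1.02 RPKM with TNF-α, 31.9 ± 0.60 RPKM with ruxolitinib, 36.4 ± 1.92 RPKM with MCL and 46.7 ± 1.56 RPKM with both drugs. MAP1LC3B made up 40.8% ± 0.841 of this sum with TNF-α and 48.8% ± 0.579 with both drugs. GABARAPL1 made up 1.40% ± 0.288 and 5.22% ± 0.245 of it. The sum of these genes thus held its level under TNF-α and ruxolitinib within 1 SD of the untreated mean. Its make-up moved toward MAP1LC3B and GABARAPL1 with both drugs. The sum is not the whole family, as it leaves out MAP1LC3B2, and GABARAP enters it with the low counts whose overlaps are described above.

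Of the regulators, ULK1 lies at chr12:131894651-131923167 on the plus strand (ENSG00000177169). Its levels were 31.9, 31.9 and 30.2 CPM in untreated cells, 39.0, 37.1 and 39.4 CPM with TNF-α, 47.5, 45.5 and 44.6 CPM with ruxolitinib, 47.2, 48.9 and 51.0 CPM with MCL, and 91.0, 88.0 and 82.1 CPM with both drugs. The groups separate completely except for those of the single drugs, where 1 ruxolitinib library reached into the MCL range.

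ULK1 rose in each of these comparisons, by 0.30 ± 0.06 with TNF-α (adjusted p = 0.000115), by 0.25 ± 0.06 with ruxolitinib (adjusted p = 0.00115) and by 0.35 ± 0.06 with MCL (adjusted p = 3.09e-06) on the log2 scale. With both drugs the rise was 1.18 ± 0.06 (adjusted p = 1.58e-27). SQSTM1 and ULK1 were the genes of the 10 that passed with TNF-α and with every drug treatment.

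WIPI1, the phosphoinositide-binding protein of the early autophagosome membrane, lies at chr17:68420948-68457513 on the minus strand (ENSG00000070540) and had 17 to 79 counts per library. It stood at 2.56, 1.61 and 2.08 CPM in untreated cells, 2.10, 1.02 and 2.36 CPM with TNF-α, 1.94, 1.31 and 1.75 CPM with ruxolitinib, 2.42, 3.20 and 2.35 CPM with MCL, and 2.72, 3.33 and 4.40 CPM with both drugs. Both drugs raised it by 0.94 ± 0.26 on the log2 scale (adjusted p = 0.00176), or by 0.65 (adjusted p = 0.0407) without TNF-α replicate 2. MCL alone gave 0.54 ± 0.27 (adjusted p = 0.147). The opposite-strand gene ARSG, a lysosomal sulfatase, overlaps 24.3% of the exonic bases of WIPI1 and had 678 counts in all libraries against 590 for WIPI1. ARSG did not pass with both drugs (0.46 ± 0.24, adjusted p = 0.101).

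TFEB lies at chr6:41683978-41736259 on the minus strand (ENSG00000112561) and passed the test with TNF-α but with no drug treatment. It stood at 6.30, 5.00 and 5.54 CPM in untreated cells, 9.14, 9.43 and 10.6 CPM with TNF-α, 9.91, 9.34 and 8.53 CPM with MCL, 8.25, 8.78 and 8.48 CPM with ruxolitinib, and 7.995, 8.90 and 8.13 CPM with both drugs. All 12 libraries with TNF-α lie above all untreated ones, and the drug groups overlap one another. TNF-α raised TFEB by 0.80 ± 0.13 on the log2 scale (adjusted p = 1.83e-06), while both drugs against TNF-α alone gave -0.22 ± 0.13 (adjusted p = 0.131), with a 95% interval from -0.47 to 0.03. MCL alone gave -0.07 ± 0.13 (adjusted p = 0.729) and ruxolitinib alone -0.19 ± 0.13 (adjusted p = 0.349).

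Whether the drugs together did more than the sum of their separate effects was tested as an interaction, which subtracts the summed log2 changes of the single drugs from that of the combination, all against TNF-α. It passed above 0 for 5 of the 10 genes and below 0 for none, where 12.2% of all tested genes passed above 0 and 12.8% below. For ULK1 the single drugs sum to 0.60 and both drugs gave 1.18, a difference of 0.58 ± 0.08 (adjusted p = 4.98e-08). CALCOCO2 differed by 0.57 ± 0.13 (adjusted p = 0.00107), NBR1 by 0.48 ± 0.07 (adjusted p = 8e-07), MAP1LC3B by 0.42 ± 0.07 (adjusted p = 2.48e-06) and SQSTM1 by 0.29 ± 0.05 (adjusted p = 5.64e-07).

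All 3 receptors, 1 ATG8 gene and the initiating kinase thus rose by more with both drugs than the log2 sum. GABARAPL1, for which the single drugs sum to 2.09 and both gave 2.50, had a difference of 0.42 ± 0.29 (adjusted p = 0.324), with a 95% interval from -0.16 to 1.00 that includes the sizes seen in the 5 genes. The 4 remaining genes did not pass either, with differences from 0.04 for TFEB to 0.76 ± 0.46 for GABARAP. MRNIP, which overlaps SQSTM1, differed by 0.73 ± 0.09 (adjusted p = 3.2e-09), and the value of CALCOCO2 was 0.40 (adjusted p = 0.00966) without TNF-α replicate 2.

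**Figure D3:**
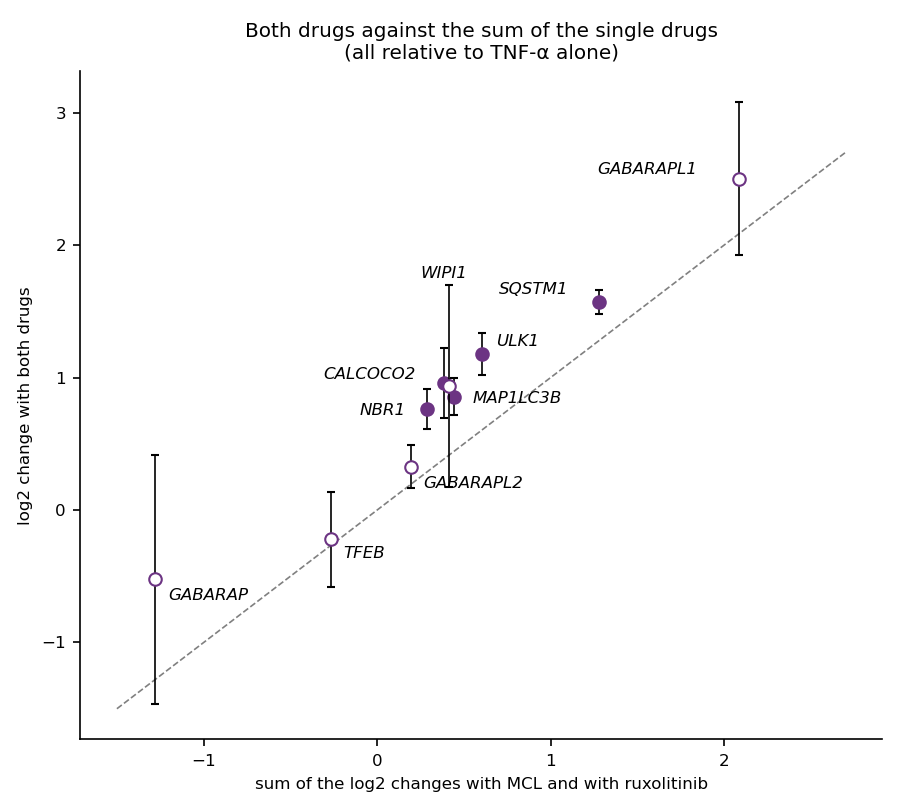
Log2 change with both drugs (vertical axis) against the sum of the log2 changes with MCL alone and ruxolitinib alone (horizontal axis), all relative to TNF-α, for the 10 genes. Vertical lines are the 95% interval of the difference between the 2 values, and filled points passed the test. The dashed line marks equality: SQSTM1, ULK1, CALCOCO2, NBR1 and MAP1LC3B lie above it and are filled, and the intervals of the other 5 genes reach it.

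The rest of the autophagy and lysosome machinery was described with 8 lists of other genes, by counts and medians. The counts with both drugs are to be read beside the 25.5% of all tested genes that rose and the 29.3% that fell. With both drugs against TNF-α alone, 12 of 18 genes of the class III PI3-kinase and WIPI list rose and 2 fell. The median log2 change of the list was 0.40. Beside genes of the PI3-kinase complex and the WIPI family, it holds ATG9A, ATG9B, ATG2A, ATG2B, VMP1, TMEM41B and ZFYVE1. ZFYVE1, which marks the membrane platform of early autophagosomes, rose by 1.15 ± 0.07 (adjusted p = 2.01e-22). TMEM41B, an endoplasmic reticulum scramblase, rose by 1.04 ± 0.07 (adjusted p = 4.87e-21). UVRAG, a subunit of the PI3-kinase complex, fell by 0.52 (adjusted p = 4.03e-10), to 30.9 CPM. With TNF-α alone UVRAG had risen by 0.64 ± 0.07 (adjusted p = 1.62e-12), from 28.3 to 44.2 CPM. ATG9B, named here after its values were seen because it lies far from the rest, went from 1.13 to 0.168 CPM. Both levels are low and the latter is near the floor, which leaves the size of its change uncertain.

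The ULK complex and nutrient kinase list had 11 higher and 3 lower of 21 tested genes (median 0.16). RB1CC1, which encodes the ULK1 partner FIP200, rose by 1.11 ± 0.05, and FLCN, the folliculin that regulates mTORC1 signalling to TFEB and TFE3, by 0.86 ± 0.05, while PRKAA1, a catalytic subunit of AMPK, fell by 0.33. ATG8 conjugation and processing genes rose in 7 of 11 cases and fell in 2 (median 0.23), with ATG4A, a protease of ATG8 proteins, up by 0.70 ± 0.12 and ATG12, part of the conjugation machinery, up by 0.67 ± 0.06. The only other ATG8 gene tested, MAP1LC3B2, rose by 1.11 ± 0.23 (adjusted p = 3.63e-05), from 2.08 to 4.46 CPM. It is a near-copy of MAP1LC3B, which rose from 66.8 to 121 CPM. Whether reads of MAP1LC3B had a part in its rise was not tested.

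Among the other selective autophagy receptors, with both drugs, 8 of 17 rose and 2 fell, with a median of 0.08. CCPG1, a receptor for the endoplasmic reticulum, rose by 2.62 ± 0.09, from 8.97 to 55.2 CPM, and by 1.51 ± 0.10 with MCL alone. OPTN, a ubiquitin-binding receptor like CALCOCO2, rose by 2.47 ± 0.06 with TNF-α, from 20.1 to 112 CPM, and then fell by 0.32 with MCL and by 0.45 with both drugs. NCOA4, the receptor for ferritin, fell by 0.19 with both drugs. SQSTM1 and OPTN thus both rose with TNF-α, and with MCL one rose further and the other fell.

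Among the MiT/TFE factors, relatives of TFEB and their repressor, 3 of 4 genes rose with both drugs. The repressor, ZKSCAN3, was among the 3. It rose by 0.64 ± 0.14 with both drugs (adjusted p = 5.91e-05) and by 0.56 ± 0.14 with ruxolitinib (adjusted p = 0.00244). TFE3 rose by 0.98 ± 0.06 with TNF-α, from 34.2 to 67.5 CPM, and by 1.03 ± 0.05 with both drugs, to 138 CPM, whereas TFEB did not pass on the latter comparison. TFEC rose by 0.79 ± 0.05 with TNF-α and by 0.47 ± 0.04 with MCL, fell by 0.37 with ruxolitinib (adjusted p = 3.22e-09), and was lower with both drugs than with MCL by -0.34 ± 0.04 (adjusted p = 1.3e-09). Of 38 lysosome genes, 15 rose and 5 fell with both drugs, with a median of 0.09. NPC1, a cholesterol exporter of the lysosome, rose by 1.21 ± 0.06 and ATP6V1A, a proton pump subunit, by 0.84 ± 0.04, while the membrane protein CD63 fell by 0.31 and the protease CTSB by 0.28. Autophagosome fusion genes were mixed, with 5 of 14 higher and 3 lower (median 0.00). The counts of the fusion list are not far from the shares of all tested genes, 25.5% higher and 29.3% lower. The lysosome list had relatively more genes higher and fewer lower than those shares.

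Fewer genes rose with TNF-α against untreated cells, and with either single drug against TNF-α alone, than with both drugs. This held in all of these lists except the MiT/TFE list. The same held among all tested genes. With MCL, where 10.9% of all tested genes rose, 8 of 18 genes of the PI3-kinase and WIPI list rose. So did 8 of 21 ULK and nutrient kinase genes, 10 of 38 lysosome genes and 0 of 14 fusion genes. With ruxolitinib, where 5.15% rose, the counts were 3, 5, 6 and 2. With TNF-α against untreated cells, where 14.1% rose, they were 6, 5, 3 and 2. Of the MiT/TFE list, 3 of 4 genes rose with MCL, as with both drugs.

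**Figure D4:**
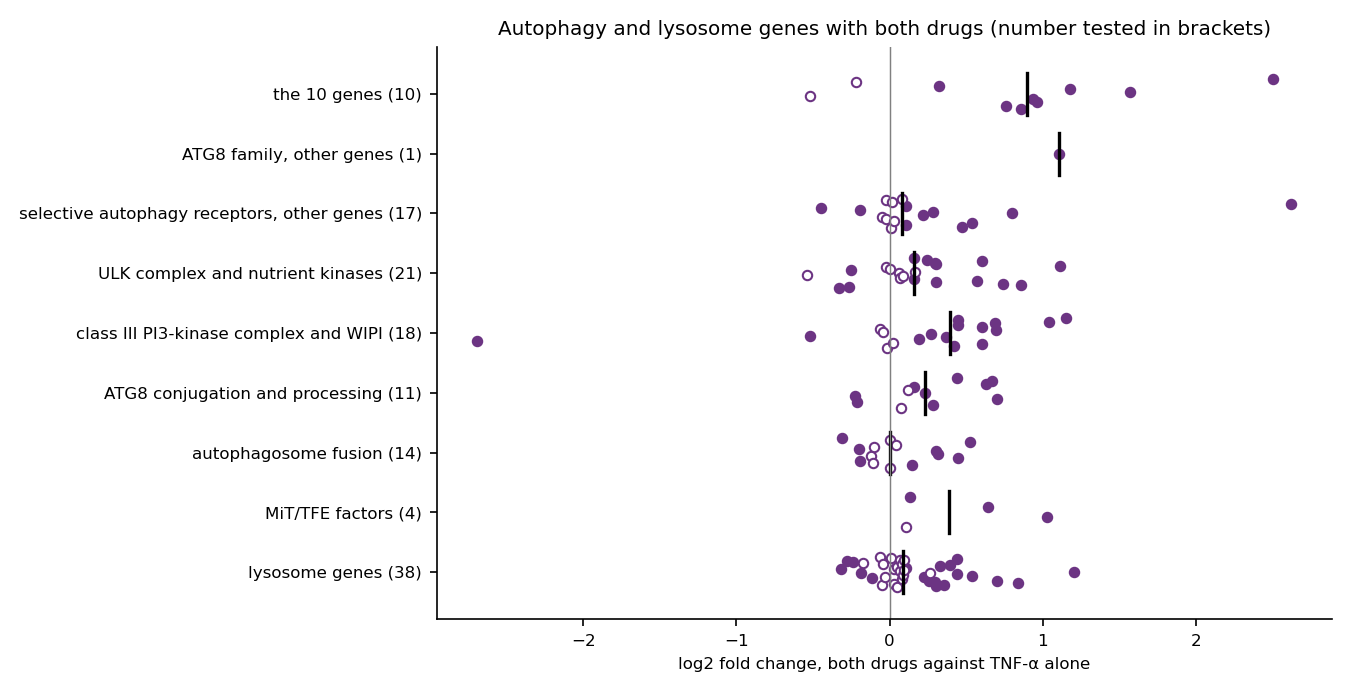
Log2 fold change with both drugs against TNF-α alone (horizontal axis) for the 10 genes and for 8 lists of other autophagy and lysosome genes, with the number tested in brackets. Points are genes, filled where they passed, spread vertically for visibility, and black bars are medians. The median of the 10 genes is 0.90, and those of the lists with more than 1 gene run from 0.00 for fusion to 0.40 for the PI3-kinase and WIPI list. The 2 points beyond 2.4 are CCPG1 and GABARAPL1, and the point near -2.7 is ATG9B, whose level with both drugs is near the floor.

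As reference points for stress responses, HMOX1 and NQO1, both known NRF2 targets, the chaperone partner BAG3, NFE2L2 (which encodes NRF2) and KEAP1 all rose with MCL and with both drugs. HMOX1 stood at 0.482 CPM with TNF-α alone, near the floor, at 63.7 CPM with MCL and at 539 CPM with both drugs. It rose by 7.03 ± 0.15 with MCL and by 10.1 ± 0.11 with both drugs. So low a start leaves the size of these changes uncertain, and their SEs may understate that. The interaction of HMOX1, which uses the same start, was 2.96 ± 0.54. Both drugs against MCL gave 3.08 ± 0.06 (adjusted p = 4.68e-26). NQO1 rose by 3.53 ± 0.15 with MCL and by 3.61 ± 0.14 with both drugs (both drugs against MCL 0.08 ± 0.10, adjusted p = 0.576). BAG3 rose by 1.26 ± 0.07 and by 2.86 ± 0.06. KEAP1 rose by 0.56 ± 0.04 and 0.60 ± 0.04 in these comparisons. In the interaction, NQO1 passed below 0 at -0.68 ± 0.22 (adjusted p = 0.0161) and BAG3 above 0 at 1.61 ± 0.10 (adjusted p = 3.44e-21). Of the 5 reference genes, 3 passed the interaction above 0 and 1 below. With TNF-α against untreated cells, where SQSTM1 rose by 1.31, NFE2L2 rose by 0.40 ± 0.06 (adjusted p = 2e-08). The 4 other reference genes did not pass. NQO1 had -0.12 ± 0.21 (adjusted p = 0.751), at 2.13 CPM in untreated cells and 1.95 CPM with TNF-α. HMOX1 went from 0.766 to 0.482 CPM, BAG3 from 21.6 to 19.7 CPM and KEAP1 from 149 to 146 CPM.

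The genes whose levels ran most like those of a member were named by Pearson's r of log2 CPM over the 15 libraries, as a description. For SQSTM1 the closest were TFE3 (r = 0.997), NPLOC4 (0.992), a cofactor of the ubiquitin segregase p97, and the annexin gene ANXA7 (0.988). For ULK1 they were MARF1 (0.989), FLCN (0.989) and CREBRF (0.987), for NBR1 the RNA export factor gene NXF1 (0.989), and for MAP1LC3B the thioredoxin family gene TMX4 (0.990). GABARAPL1 ran most like HSD17B7 (0.977), an enzyme of cholesterol synthesis. TFEB ran most like XK (0.961). GABARAP had the weakest closest match, MED17 at 0.835. The libraries fall into 5 groups of 3, so r mainly reflects the group means.

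TFE3 and SQSTM1 illustrate such a likeness. TFE3 stood at 36.6, 33.5 and 32.5 CPM in untreated cells, 63.6, 67.8 and 71.2 CPM with TNF-α, 65.9, 74.9 and 69.8 CPM with ruxolitinib, 109, 118 and 116 CPM with MCL, and 136, 140 and 137 CPM with both drugs. Its TNF-α and ruxolitinib libraries overlap, where those of SQSTM1 do not, and all other groups are separate in both genes.

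**Figure D5:**
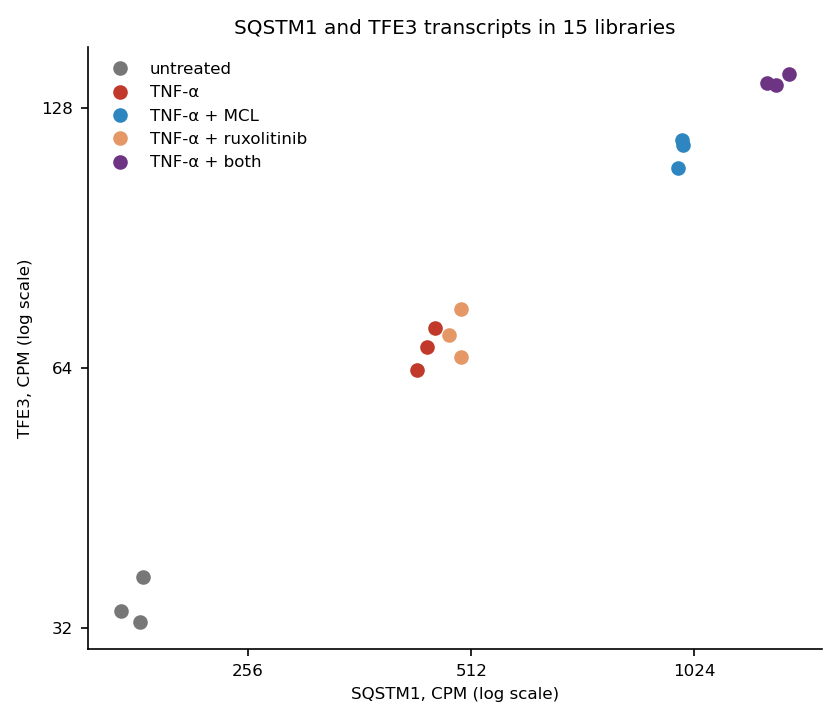
Levels of SQSTM1 (horizontal axis) and TFE3 (vertical axis) in CPM on log scales, with 1 point per library, coloured by group. The points run from the untreated libraries at the lower left, with SQSTM1 near 180 CPM, to those with both drugs at the upper right, with SQSTM1 between 1281 and 1372 CPM, and the TNF-α and ruxolitinib groups lie side by side.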

How the data were processed

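RNA of UKE-1 cells was sequenced in 15 libraries, 5 groups of 3. The deposited table holds unnormalized counts (whole reads) for 58735 genes, and a gene length per gene that the authors gave with it. The submitters' processing notes name HISAT2 2.0.5, featureCounts 1.5.0-p3, DESeq2 1.16.1, hg38 and mm10, and the gene starts and ends of the table equal those of GENCODE 29 for hg38. Its control columns were assigned to the untreated cells.

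Genes with low counts were removed (filterByExpr of edgeR 4.0.16 in R 4.3.3, minimum count 10), which left 16146 genes with at least 99.8% of each library's counts. All 15 libraries entered 1 model with a coefficient per group and 10 residual degrees of freedom, with TMM scaling, a robust quasi-likelihood F-test, and p-values adjusted by Benjamini-Hochberg over all tested genes (threshold 0.05). Standard errors were derived from the log2 fold change and F, as their ratio with F under a square root. CPM values use TMM factors, and RPKM divides them by the gene length of the table. There were 7 comparisons of 2 groups and the interaction. The scripts were tested on simulated data. Pairs of libraries within a group differed by more than sampling noise (chi-square of 2.02 to 4.07 per degree of freedom), so none was treated as a copy.

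The 10 genes and the gene lists were chosen with earlier results of these data known. Named list genes are, per list and comparison, up to 2 passing genes with the highest and up to 2 with the lowest change, at 5 CPM or more in the higher group; MAP1LC3B2 was named as the only tested gene of its list. The 3 closest genes of each member were found among genes of 5 CPM or more in some group, and some are not reported here. Alternatives were DESeq2 size factors, library totals, no filter, DESeq2 1.42.0, a fit of only the groups compared, a replicate block, and leaving out each library.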

Additional observations from a re-analysis of the deposited data

Results flagged for a closer look

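For 5 genes the effect of MCL differed by whether ruxolitinib was present, by the interaction test of edgeR over all tested genes. The log2 effect of MCL with ruxolitinib minus that without it was 0.58 for ULK1 (adjusted p = 4.98e-08), 0.57 for CALCOCO2 (adjusted p = 0.00107), 0.48 for NBR1 (adjusted p = 8e-07), 0.42 for MAP1LC3B (adjusted p = 2.48e-06) and 0.29 for SQSTM1 (adjusted p = 5.64e-07). In ULK1 the effect of MCL was 0.35 without ruxolitinib and 0.92 with it, and in SQSTM1 it was 1.14 and 1.43. All 5 kept these calls under every alternative run, left-out libraries included, with CALCOCO2 ranging from 0.40 to 0.65 and ULK1 from 0.54 to 0.61 when single libraries were left out.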

How the results depend on the processing

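Groups share replicate numbers. Over 30 pairs of libraries with the same number, the deviations from group means correlated between -0.0483 and 0.0483, and libraries did not each correlate best with their own number, so the numbers were not taken to pair the libraries. With a replicate block, 1 member was lower with both drugs against TNF-α alone, in place of 0 (GABARAP, -0.59, adjusted p = 0.046), and no other member count changed, while genes called there went from 8840 to 8890. Leaving out single libraries moved the number of lower members between 0 and 1 in 5 comparisons, always through GABARAP except for CALCOCO2 with TNF-α against untreated cells: TNF-α against untreated cells, MCL against TNF-α, both drugs against TNF-α, both drugs against ruxolitinib, and MCL against ruxolitinib. In the last, GABARAP gave -0.95 (adjusted p = 0.112) without MCL replicate 1, -0.60 (0.174) without MCL replicate 3, -0.83 (0.139) without ruxolitinib replicate 1 and -0.94 (0.0882) without ruxolitinib replicate 2. Both drugs against MCL passed for GABARAP without MCL replicate 2 (1.03, adjusted p = 0.0236) or combination replicate 3 (0.90, adjusted p = 0.0205), and both drugs against ruxolitinib without combination replicate 2 (-0.83, adjusted p = 0.0283). No called value of a member changed sign. Of the single-gene values, 521 of those with a library left out kept their side of the threshold, 13 lost it and 6 gained it, and under the other settings 473 kept it, 2 lost it and 5 gained it. The cause was not tested. GABARAP, WIPI1 and GABARAPL1 have few counts, which limits their precision.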
